A study of Oryza sativa Indica Group with 23 samples.

Results

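RAB16A, LEA3 and DHN1 are 3 rice genes of the late embryogenesis abundant (LEA) group, and their transcripts were followed in roots of 4 rice genotypes grown with and without salt. They were found by symbol or synonym in the RefSeq gene table, and every probe set whose single annotated gene was one of them was kept. This gave 6 probe sets of 57194 rice probe sets, and 3 genes of 17905 with a probe set of their own. The table lists RAB16A as RAB21 (gene identifier 4350454), LEA3 as LEA19 (4339480) and DHN1 as a synonym of the gene with identifier 4330265. RAB16A had 2 probe sets, LEA3 had 1 and DHN1 had 3. The probe set with the highest mean stood for its gene, and the others are given beside it. The only LEA3 probe set, the second of RAB16A and the second of DHN1 carry the ending _s_at, which marks probes shared by more than one transcript in the array's design, so they may also take up signal from a close relative.

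The study held 23 Affymetrix rice arrays, each of total RNA from roots. The groups were FL478 salt, IR29 salt, IR63731 salt and Pokkali salt, with 3 arrays each, and FL478 control, IR63731 control and Pokkali control with 3 arrays each and IR29 control with 2. All seedlings grew in sand watered with nutrient solution and were harvested on day 30. In the salt groups NaCl and CaCl2 were added from day 22, in 2 steps spread over 3 days, to a conductivity of 7.4 dS per m, so each salt group is a single late time point of whole roots. FL478 is a breeding line selected from a cross of IR29 and Pokkali for salt tolerance, IR29 is a salt-sensitive variety and Pokkali is a tolerant landrace. The labels call the arrays of a group biological replicates without saying what was shared, so p-values measure only the spread between these arrays.

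LEA proteins gather in maturing seeds and in tissues that lose water, and are thought to protect proteins and membranes from drying. Dehydrins, to which RAB16A and DHN1 belong, are a lysine-rich and very hydrophilic class of them, while LEA3 belongs to the class with repeated helical motifs. Many LEA genes are switched on by abscisic acid (ABA), a hormone that builds up under drought and salt. ABA binds receptors that hold back PP2C phosphatases, which frees SnRK2 kinases (SAPK in rice) to activate bZIP transcription factors such as TRAB1. RAB stands for responsive to ABA.

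The probe sets stood at very different levels. Averaged over all arrays, RAB16A was at 4.92 on the log2 scale and LEA3 at 5.03, above 56.7% and 57.9% of all probe sets, while DHN1 was at 11.15, above 97.9%. The array medians lay between 4.31 and 4.41, so RAB16A and LEA3 were only just above the middle of the array. The second RAB16A probe set averaged 3.57, and the other DHN1 probe sets averaged 5.97 and 3.77, against 11.15 for the first. Levels of different probe sets depend on their probes and are not compared as amounts of transcript.

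Most root marker genes had bright probe sets. The mean level of 9 root marker genes was 8.85 to 10.03 in salt arrays and 8.70 to 9.94 in control arrays, and the silicon transporter gene LSI1 averaged 13.4. Markers of 9 seed and embryo genes averaged 4.53 to 4.72 in salt arrays and 4.59 to 4.82 in control arrays, and those of 5 leaf photosynthesis genes averaged 5.34 to 5.95 in salt arrays and 5.43 to 6.45 in control arrays. These are levels of different probe sets, and single genes went against the lists: the root gene SCR1 averaged 4.64, the leaf gene PPDK1 9.60 and the seed globulin gene GLB1 9.14. With salt, 1 of 9 root markers passed, the nitrate transporter gene NRT2.3 (0.63 log2 higher), where 8.31% of all probe sets passed. An unadjusted p under 0.05 was found for 5 of the 9, and the share of all probe sets at that level was not counted. The widest root marker differences, 1.03 log2 for the sodium transporter gene HKT1;5 and -1.12 for the iron transporter gene IRT2, did not pass. Of the seed markers 1 of 9 passed, the glutelin gene GLUB5, which fell by 0.33 log2. Of the leaf markers 0 of 5 passed in limma, with 0 at an unadjusted p under 0.05.

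Arrays also differed in how well they matched their genotype. Each array was placed on a scale from 0 (the other genotypes) to 1 (the named genotype) at probe sets that differ by at least 2 log2 units between that genotype and the rest. On the scale of their own genotype 20 arrays had positions of 0.920 to 1.045. FL478 salt replicate 2 lay at 0.387 towards FL478 and 0.598 towards IR63731. IR29 control replicate 1 lay at 0.548 towards IR29 and 0.479 towards IR63731, and FL478 control replicate 3 at 0.806 towards FL478 and 0.218 towards IR63731. Results are therefore also given without these 3 arrays.

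RAB16A was the only gene of the 3 to pass the test of salt against control. It rose in salt roots, by 0.79 log2 units (SE 0.12, 95% interval 0.53 to 1.05, or 1.73-fold) in the equally weighted mean of the 4 genotypes, at an adjusted p = 0.000557 in limma. The level in 12 of 12 salt arrays was above the control mean of the same genotype. How many of all probe sets showed such counts, or groups without overlap, was not counted. With 2 or 3 arrays a group, counts above the mean and gaps between groups only describe the values, here and below. Of all probe sets, 8.31% passed in this comparison, 4.95% higher and 3.36% lower with salt. RAB16A and its second probe set were the only ones of the 6 to pass. In whole roots, more cells of a kind that expresses RAB16A and more transcript per cell cannot be told apart.

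The arrays of FL478 showed the highest RAB16A levels. RAB16A stood at 5.91, 5.58 and 6.74 in FL478 salt roots and at 4.82, 4.72 and 4.85 in FL478 control roots. The 3 salt arrays were all above the control arrays, and they were spread far more widely. The rise in FL478 was 1.28 log2 (SE 0.24, 95% interval 0.78 to 1.78, or 2.43-fold), with an adjusted p = 0.0147 in limma, in a comparison in which 0.96% of all probe sets passed. Without the 3 arrays it was 1.55 (adjusted p = 0.0283), and without FL478 salt replicate 3, the highest array, it was 0.95 (adjusted p = 0.0508). The call was likewise lost without FL478 control replicate 1 (adjusted p = 0.0601) or FL478 control replicate 3 (adjusted p = 0.0517), and it was lost when only the FL478 arrays were fitted (adjusted p = 0.157).

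RAB16A in Pokkali stood at 4.68, 5.61 and 5.57 in salt roots and at 4.40, 4.29 and 4.20 in control roots. The salt arrays were again all above the control arrays, with replicate 1 closest to them. The difference was 0.99 log2 (SE 0.24, 95% interval 0.49 to 1.49), and its adjusted p = 0.0916 in limma missed the threshold of 0.05, where 0.341% of all probe sets passed. It passed without Pokkali salt replicate 1 (1.29, adjusted p = 0.0307) and without FL478 salt replicate 3 (adjusted p = 0.0337).

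RAB16A in IR63731 stood at 5.02, 5.29 and 4.93 in salt roots and at 4.49, 4.68 and 4.47 in control roots, again without overlap. The difference of 0.53 log2 (SE 0.24) did not pass (adjusted p = 0.578), in a comparison in which 0.0717% of all probe sets did. In IR29 the gene stood at 4.92, 4.79 and 4.48 in salt roots and at 4.28 and 4.46 in control roots. These groups were apart by only 0.015, and the difference of 0.36 log2 (SE 0.27) did not pass (adjusted p = 0.759, with 0.343% of all probe sets passing). Without the 3 arrays the IR29 difference was 0.26, with a single control array left.

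**Figure D1:**
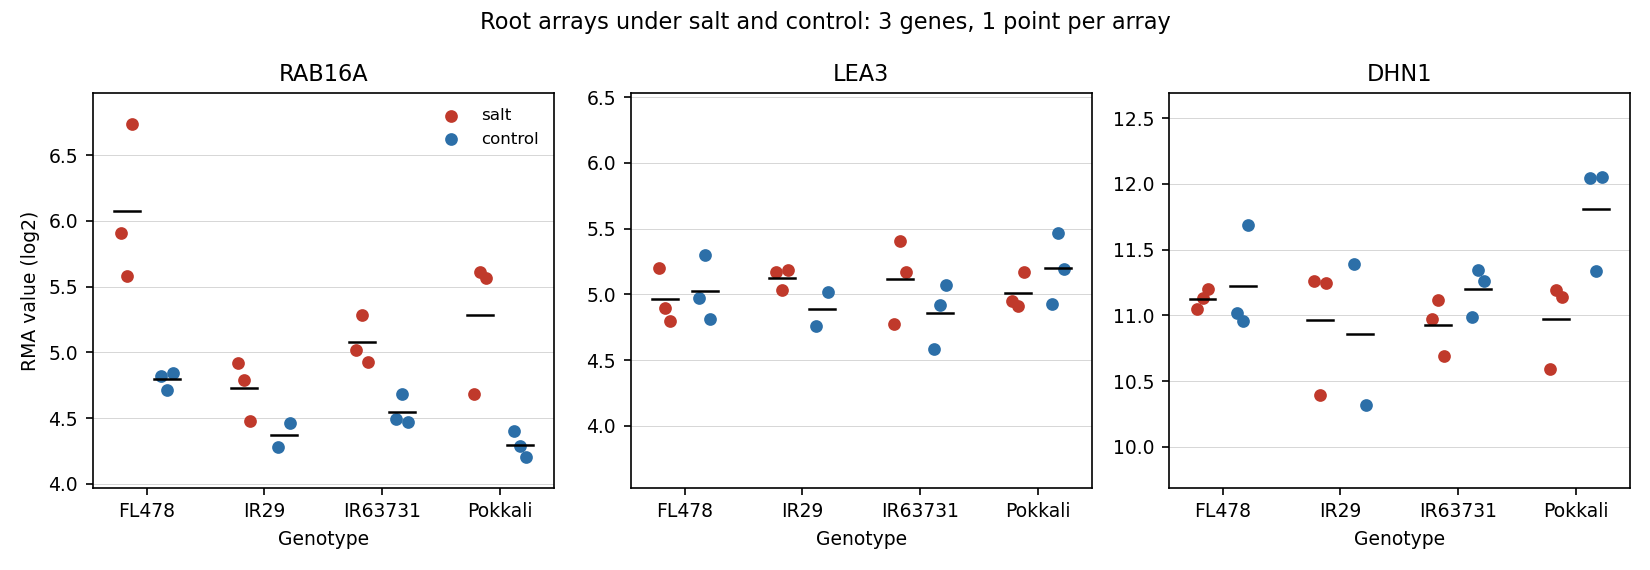
RMA values (log2) of RAB16A, LEA3 and DHN1 by genotype, 1 point per array, with salt left of control and a black bar at each group mean. RAB16A salt arrays lie above the control arrays in each genotype, LEA3 arrays lie between 4.59 and 5.47 throughout, and DHN1 salt arrays lie below the control arrays in Pokkali.

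The second RAB16A probe set gave the same direction at a lower level. It stood at 4.67, 3.84 and 4.54 in FL478 salt roots against 3.60, 3.41 and 3.29 in FL478 control roots, and at 3.64, 3.96 and 3.88 in Pokkali salt roots against 2.97, 3.04 and 3.14 in Pokkali control roots. Its groups did not overlap in these 2 genotypes and did overlap in IR29 and IR63731. Its salt difference was 0.55 log2 (SE 0.09, adjusted p = 0.000558) in the mean of 4 genotypes, 0.92 in FL478 (adjusted p = 0.0123) and 0.78 in Pokkali (adjusted p = 0.0511, not passing). Both probe sets interrogate one gene on the same arrays and are not independent evidence.

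LEA3 did not pass in any salt comparison. It stood at 5.20, 4.90 and 4.80 in FL478 salt roots and at 4.97, 5.30 and 4.81 in FL478 control roots. In Pokkali it stood at 4.95, 4.91 and 5.17 in salt roots and at 4.93, 5.47 and 5.20 in control roots. In both genotypes the salt and control arrays were mixed.

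In IR63731, LEA3 stood at 4.77, 5.40 and 5.17 in salt roots and at 4.59, 4.92 and 5.08 in control roots. In IR29 it stood at 5.17, 5.03 and 5.19 in salt roots and at 4.76 and 5.02 in control roots, where the groups were apart by 0.013. Over all genotypes 6 of 12 salt arrays were above their control mean. The mean difference for LEA3 was 0.06 log2 (SE 0.09, 95% interval -0.13 to 0.25, adjusted p = 0.767 in limma). A rise as large as that of RAB16A lies outside this interval. The interval holds for the probe set, a shared one only just above the middle of the array. By genotype the LEA3 difference was -0.06 in FL478, 0.24 in IR29, 0.26 in IR63731 and -0.18 in Pokkali, and none passed.

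DHN1, the dehydrin gene with the brightest probe set, was lower with salt in Pokkali by its values, without passing the test. It stood at 10.59, 11.19 and 11.14 in Pokkali salt roots and at 12.04, 11.34 and 12.06 in Pokkali control roots. The salt arrays were all below the control arrays, by at least 0.143. The difference was -0.84 log2 (SE 0.28, 95% interval -1.43 to -0.24), and its adjusted p = 0.273 in limma missed the threshold.

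In FL478, DHN1 stood at 11.05, 11.13 and 11.20 in salt roots and at 11.02, 10.96 and 11.68 in control roots. In IR63731 it stood at 10.98, 11.11 and 10.69 in salt roots and at 10.99, 11.35 and 11.26 in control roots. In IR29 it stood at 11.26, 10.40 and 11.24 in salt roots and at 11.40 and 10.32 in control roots. In these 3 genotypes the salt and control arrays overlapped, and the DHN1 differences of -0.09, -0.27 and 0.11 log2 did not pass.

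Over all genotypes 2 of 12 DHN1 salt arrays were above their control mean. The mean difference was -0.27 log2 (SE 0.15, 95% interval -0.58 to 0.03, adjusted p = 0.299), and without the 3 arrays -0.08 (adjusted p = 0.832). The other DHN1 probe sets did not share this direction. They differed by 0.11 (adjusted p = 0.519) and 0.14 log2 (adjusted p = 0.275), with 8 of 12 salt arrays above the control mean for each, and in Pokkali by -0.02 and 0.33. Whether they measure the same transcript as the bright DHN1 probe set was not tested.

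**Figure D2:**
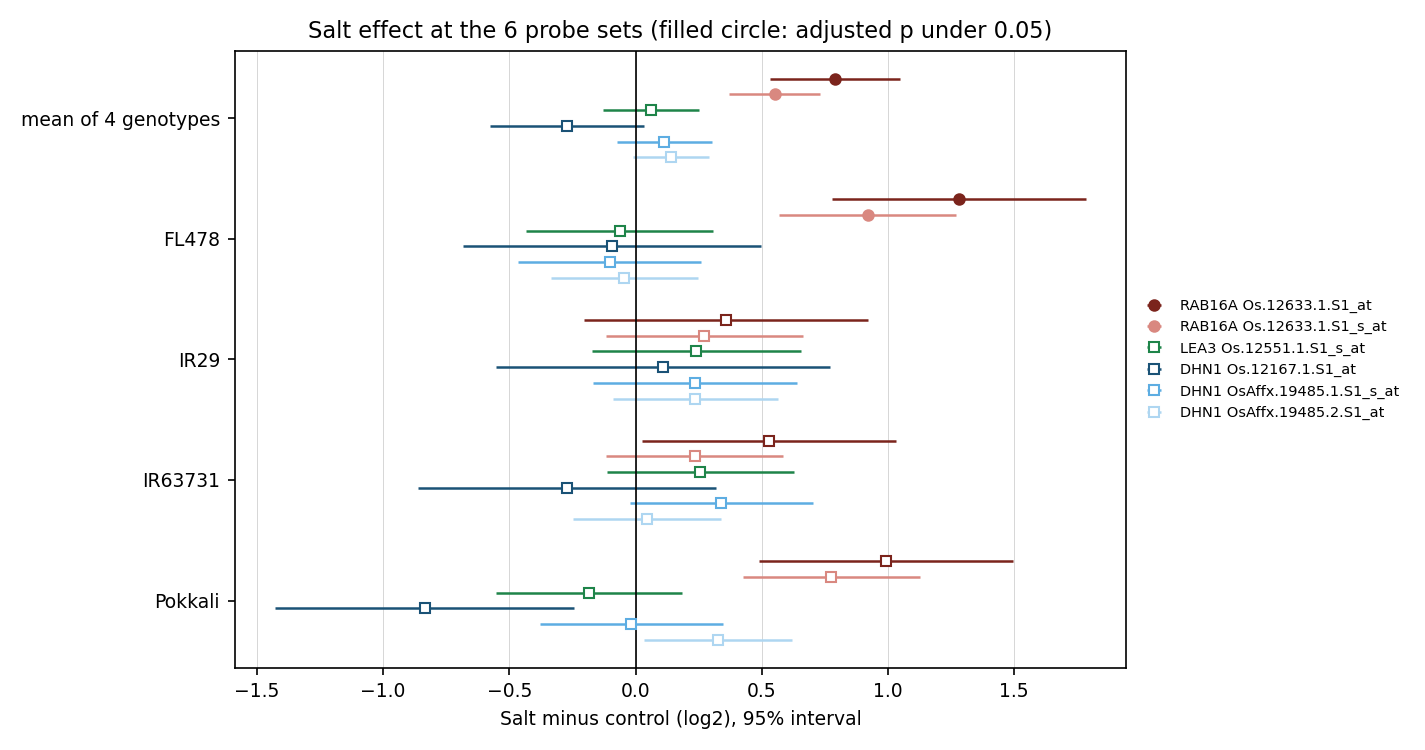
Salt minus control (log2) at the 6 probe sets, with the 95% interval from limma, in the mean of 4 genotypes and in each genotype. Filled circles, at both RAB16A probe sets in the mean and in FL478, have an adjusted p under 0.05, and open squares do not.

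Of the 12 tests of 3 genes in 4 genotypes, 1 passed and 4 had an unadjusted p under 0.05. The 4 were RAB16A in FL478, Pokkali and IR63731, and DHN1 in Pokkali. The share of all probe sets with an unadjusted p under 0.05 was not counted. Counts at that level, here and below, therefore cannot be set against a general rate. In FL478 and IR63731 salt and control arrays of one replicate number departed together from their group means, by the criterion of r above 0.1. A fit with the number as a block changed none of these calls in FL478 and IR63731. The block was shared by all groups, IR29 and Pokkali included, so it was not a paired test within a genotype. It raised the calls over all probe sets to 897 higher and 713 lower in FL478, against 303 higher and 246 lower. In IR63731 it raised them to 106 higher and 93 lower, against 17 higher and 24 lower.

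Group by group, RAB16A ran from FL478 salt (6.08 ± 0.60, SD, n = 3) through Pokkali salt (5.29 ± 0.52, n = 3), IR63731 salt (5.08 ± 0.19, n = 3), FL478 control (4.80 ± 0.07, n = 3), IR29 salt (4.73 ± 0.23, n = 3), IR63731 control (4.55 ± 0.11, n = 3) and IR29 control (4.37 ± 0.13, n = 2) to Pokkali control (4.30 ± 0.10, n = 3). Neighbours in this order overlapped except IR63731 salt against FL478 control, and IR63731 control against IR29 control. RAB16A in salt-treated roots of IR29, the sensitive variety, overlapped that in FL478 control roots. The 8 group means of LEA3 ran from 4.86 in IR63731 control to 5.20 in Pokkali control, and each neighbouring pair overlapped. Those of DHN1 ran from 10.86 in IR29 control to 11.81 in Pokkali control, again with each neighbouring pair overlapping.

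Among salt-treated roots, RAB16A was higher in FL478 than in IR29 and IR63731. FL478 salt roots, at 5.58 to 6.74, were above IR29 salt roots, at 4.48 to 4.92, and the difference of 1.35 log2 (SE 0.24, 95% interval 0.85 to 1.85) passed in limma (adjusted p = 0.00208, with 3.74% of all probe sets passing). FL478 salt roots were also above IR63731 salt roots, at 4.93 to 5.29, by 1.00 log2 (adjusted p = 0.0443, with 1.3% passing). FL478 and Pokkali salt roots overlapped narrowly, at 5.58 to 6.74 and 4.68 to 5.61, and their difference of 0.79 log2 did not pass (adjusted p = 0.0951, with 3.05% passing).

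The call between FL478 and IR29 held in all 23 fits that left out 1 array, with RAB16A differences of 1.02 to 1.59 log2. That between FL478 and IR63731 was lost in 18 of 23 such fits (0.67 to 1.25, adjusted p 0.00513 to 0.282). FL478 salt replicate 2, the array that lay between these genotypes, had the lowest RAB16A of the 3 FL478 salt arrays. Without the 3 arrays all 3 RAB16A differences of FL478 under salt passed, at 1.59 to IR29 (adjusted p = 0.0011), 1.25 to IR63731 (adjusted p = 0.0101) and 1.04 to Pokkali (adjusted p = 0.0308).

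The remaining pairs of salt-treated roots did not differ by the test in RAB16A. Pokkali minus IR29 was 0.56 log2 (95% interval 0.06 to 1.06, adjusted p = 0.235, with 6.34% of probe sets passing), IR63731 minus IR29 was 0.35 (adjusted p = 0.693, with 2.94% passing) and IR63731 minus Pokkali was -0.21 (adjusted p = 0.902, with 3.3% passing). Over the 3 genes 2 of 18 such tests passed, and 4 had an unadjusted p under 0.05. The RAB16A tests made up both calls.

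Without salt, no difference between genotypes passed at these genes. Of 18 tests among control roots 0 passed in limma, and 3 had an unadjusted p under 0.05, while of all probe sets 1.38% passed for FL478 minus IR29, 2.44% for FL478 minus IR63731, 4.36% for FL478 minus Pokkali, 0.893% for IR63731 minus IR29, 3.6% for IR63731 minus Pokkali and 4.15% for Pokkali minus IR29. The lowest adjusted p was that of DHN1, 0.95 log2 higher in Pokkali than in IR29 control roots (SE 0.32, adjusted p = 0.111). Without the 3 arrays this DHN1 difference was 1.49 (adjusted p = 0.0195), with 1 IR29 control array left, that at 10.32. Without the other IR29 control array, replicate 2, it was 0.42 (adjusted p = 0.834), so the value turned on which of the 2 was kept. Without Pokkali control replicate 2 it was 1.19 (adjusted p = 0.0469). For RAB16A the control differences of FL478 were 0.42 to IR29 (95% interval -0.14 to 0.99), 0.25 to IR63731 and 0.50 to Pokkali (95% interval -0.00 to 1.00).

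**Figure D3:**
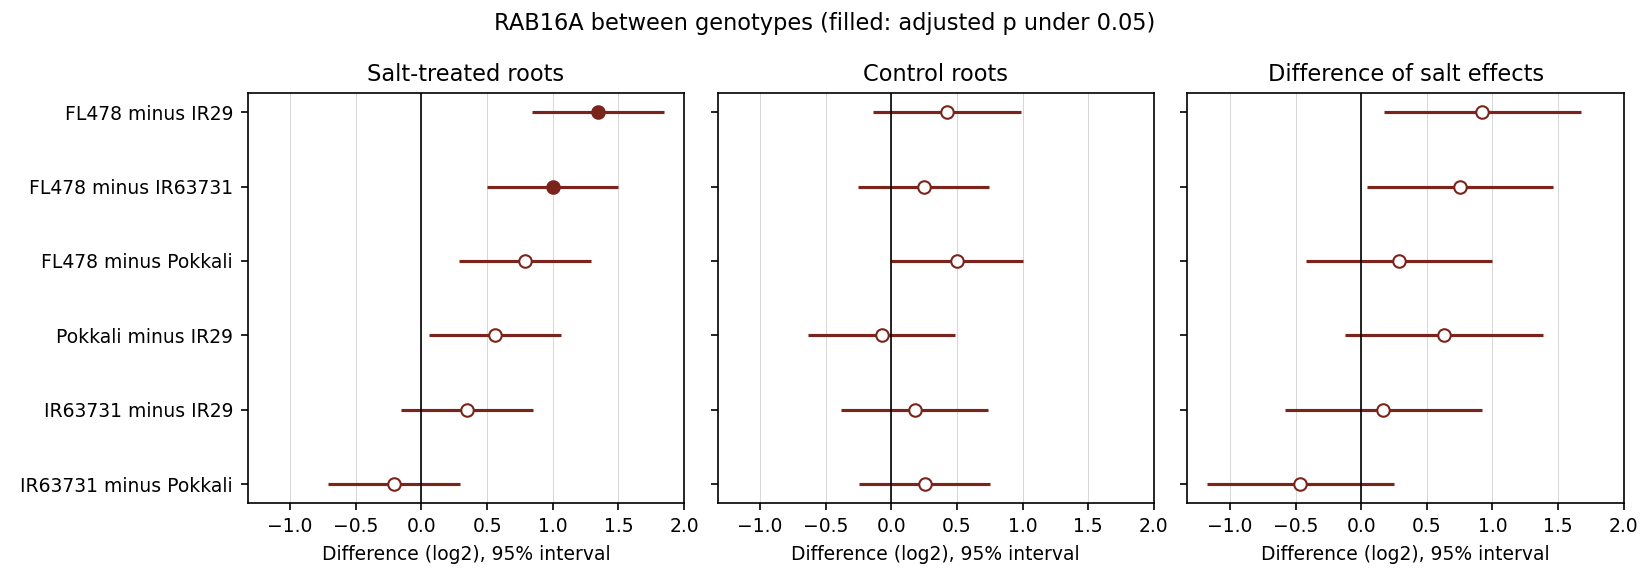
RAB16A differences between genotypes (log2) with 95% intervals from limma, for salt-treated roots, control roots and the difference of the salt effects, with filled points where the adjusted p was under 0.05. The points filled are FL478 minus IR29 and FL478 minus IR63731 in salt-treated roots.

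Whether the salt effect itself differed between genotypes was tested directly. Of 18 tests over the 3 genes 0 passed in limma, with adjusted p from 0.952 to 1.00, and 3 had an unadjusted p under 0.05, while of all probe sets 0.00175% passed for FL478 minus IR29, 0.0035% for FL478 minus IR63731, 0.00525% for FL478 minus Pokkali and 0% for the other pairs. The RAB16A salt effect in FL478 less that in IR29 was 0.92 log2 (95% interval 0.17 to 1.68), less that in IR63731 0.75 (0.04 to 1.46) and less that in Pokkali 0.29 (-0.42 to 1.00). The DHN1 salt effect in Pokkali less that in IR29 was -0.95 log2 (95% interval -1.83 to -0.06). This DHN1 value was -1.48 without IR29 control replicate 1, and also without the 3 arrays, and -0.41 without IR29 control replicate 2. No difference in RAB16A response passed the test, and the order of FL478 and Pokkali was not stable. FL478 less Pokkali was 0.56 without the 3 arrays, -0.041 without FL478 salt replicate 3 and -0.012 without Pokkali salt replicate 1.

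RAB16A has close relatives on the chromosome. In the RefSeq table (assembly ASM3414082v1) the genes RAB16D, RAB16C, RAB16B and RAB16A follow each other, with 2 other listed genes, a long non-coding RNA and a pseudogene, among them. The other RAB16 genes did not pass. RAB16B differed by 0.08 log2 with salt in the mean of 4 genotypes (adjusted p = 0.655), RAB16C by -0.05 (adjusted p = 0.759) and RAB16D by -0.11 (adjusted p = 0.648). Their salt arrays were above the control mean in 9 of 12, 4 of 12 and 4 of 12 cases, and salt and control arrays overlapped in all genotypes. RAB16B was a dim probe set, above 20.1% of all probe sets.

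RAB25, another dehydrin gene, stood at 3.43, 3.42 and 3.69 in IR29 salt roots against 3.00 and 2.93 in IR29 control roots, without overlap. In Pokkali it ran the other way, at 2.56, 2.98 and 2.57 in salt roots against 3.03, 2.94 and 3.24 in control roots. Neither RAB25 difference passed, at 0.54 log2 in IR29 (adjusted p = 0.237) and -0.37 in Pokkali (adjusted p = 0.412). RAB25 was higher by 0.32 log2 in FL478 and 0.28 in IR63731, where the arrays overlapped, and neither passed. In the mean of 4 genotypes RAB25 was 0.19 log2 higher and did not pass (adjusted p = 0.144 in limma). EMP1, an LEA gene of the Em type known from embryos, differed by -0.07 log2 in the mean of 4 genotypes (adjusted p = 0.698), with 5 of 12 salt arrays above the control mean. RAB25 was as dim as RAB16B, above 17.8% of all probe sets.

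Counted as lists, 1 of 6 measured dehydrin genes, RAB16A, was higher with salt and none lower. Among all probe sets 4.95% were higher and 3.36% lower, which are shares of probe sets and not of genes. The dehydrin median was 0.01 log2, against -0.01 over all probe sets. It was below the median of 0.04 over the probe sets that stand for a gene. An unadjusted p under 0.05 was found for 2 of the 6. Of the other LEA genes found by symbol or synonym 2 of 3 were measured, LEA3 and EMP1. Of these 0 passed in limma, with 0 at an unadjusted p under 0.05. Gene descriptions were not searched, so LEA genes and dehydrins listed under other names are left out, and these genes do not stand for the whole family.

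**Figure D4:**
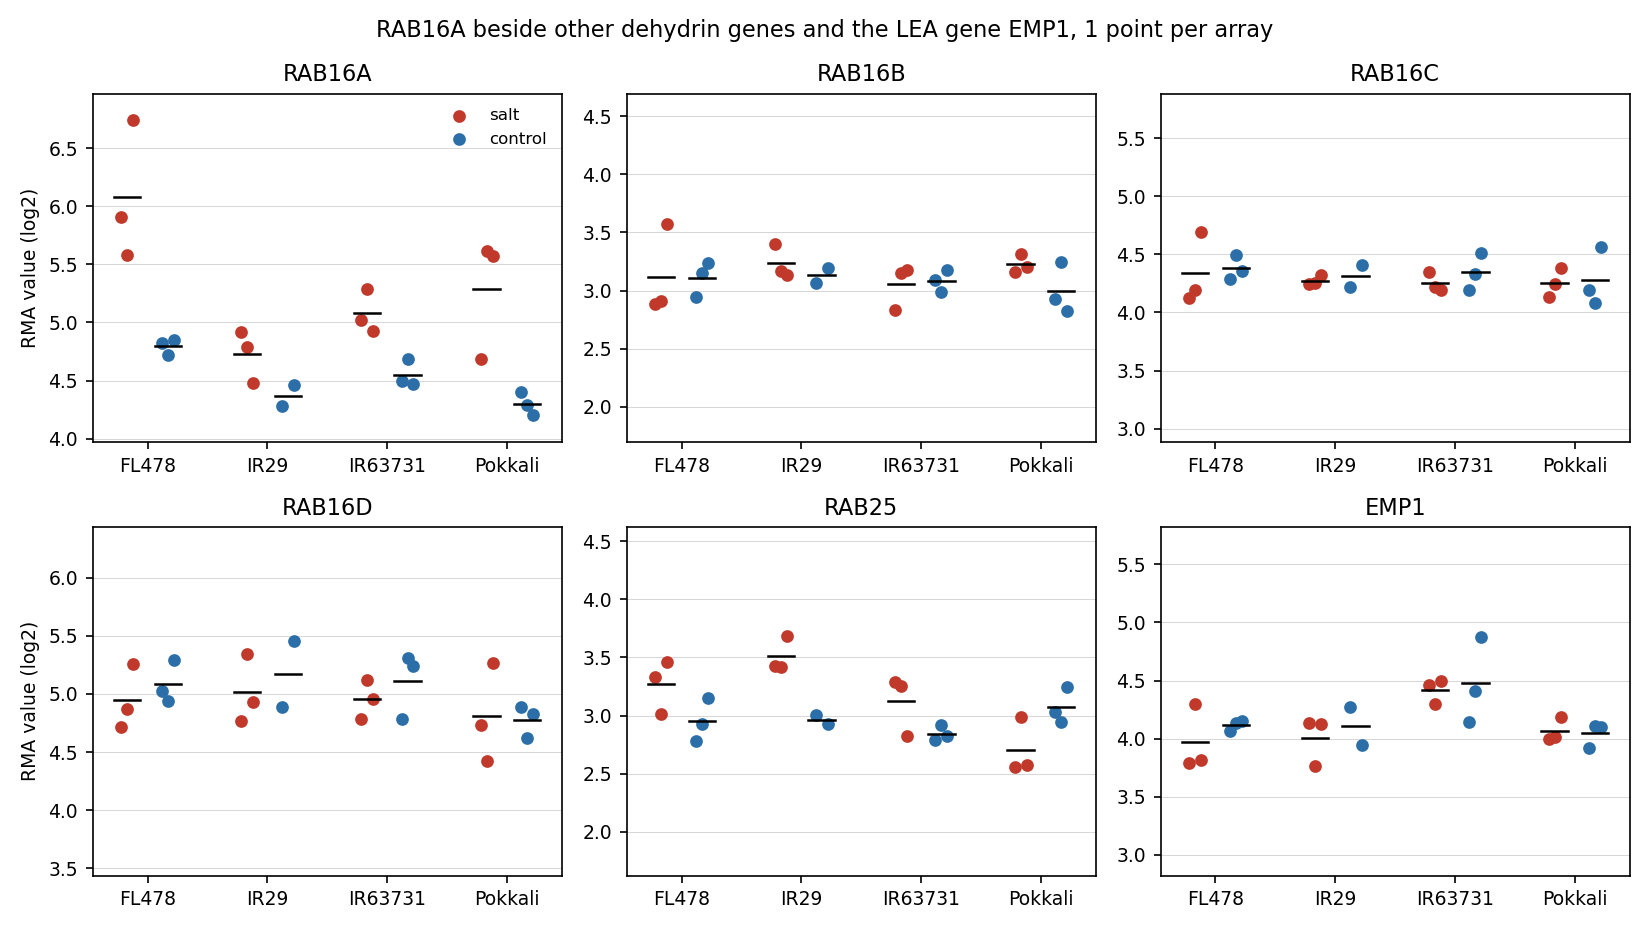
RMA values (log2) of RAB16A, the dehydrin genes RAB16B, RAB16C, RAB16D and RAB25, and the LEA gene EMP1 by genotype, 1 point per array, with salt left of control and a bar at each group mean. Panels cover 3 log2 units each, and RAB16A is the one in which salt arrays lie above control arrays in every genotype.

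ABA8OX1 and ABA8OX2, which encode the hydroxylases that start ABA breakdown, were higher by 0.72 log2 (adjusted p = 0.00524) and 0.49 log2 (adjusted p = 0.00338) in the mean of 4 genotypes, and they were the only 2 of 6 measured genes of ABA synthesis and breakdown to pass, against 4.95% of all probe sets higher and 3.36% lower. The list's median was 0.17 log2, against -0.01 over all probe sets and 0.04 over the probe sets that stand for a gene. The genes ZEP (0.29), PSY1 (-0.07), PSY2 (0.04) and PSY3 (-0.43), which act in carotenoid and ABA synthesis, did not pass. The list held 9 genes, and NCED3, a gene of the step that commits carotenoids to ABA, ZEP1 and ABA8OX3 were not measured here.

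Among 19 measured genes of ABA perception and signalling, 1 was higher and 2 were lower with salt, against 4.95% and 3.36% of all probe sets, with a median of -0.02 log2. The count of genes higher is close to that share. SAPK7, a SnRK2-type kinase gene, was higher by 0.31 log2 (adjusted p = 0.00781). PP2C27, a phosphatase gene, fell by 0.59 log2 (adjusted p = 5.15e-05), and SAPK3 fell by 0.20 (adjusted p = 0.0404). The list took PP2C and SAPK genes by name, and whether PP2C27, SAPK7 or SAPK3 acts in ABA signalling was not tested. PP2C27 also fell in FL478, by 0.77 (adjusted p = 0.0109), and in Pokkali, by 0.89 (adjusted p = 0.00732), and SAPK7 was higher in FL478 by 0.70 (adjusted p = 0.0166). Leaving out 1 array at a time, 16 of 23 fits called 1 lower gene in this list, not 2.

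TRAB1, a bZIP factor that acts downstream of ABA, was higher by 0.18 log2 (adjusted p = 0.0216 in limma). It was the gene higher among 3 measured ABA-linked transcription factors, against 4.95% of all probe sets higher and 3.36% lower. Of 11 measured drought and cold response transcription factor genes of the DREB and NAC families 0 passed in limma, where 8.31% of all probe sets passed. Among these 11 genes 3 had an unadjusted p under 0.05, and the median was 0.04 log2. These values give the level of transcripts only. ABA itself was not measured, and its part in the RAB16A rise was not tested.

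RNA quality moved with treatment. The 3 prime minus 5 prime difference of the control probe sets averaged 0.689 in salt arrays (0.489 to 0.873, n = 12) and 0.603 in control arrays (0.512 to 0.741, n = 11). With this value as a covariate the RAB16A rise was 0.80 log2 (adjusted p = 0.00516 in limma), close to the 0.79 without it. The covariate was fitted only for the mean of 4 genotypes. There it cut the calls over all probe sets to 1006 higher and 801 lower, against 2830 and 1923.

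The genes whose pattern was most like a member's were listed by Pearson's r over the 23 arrays, from 2448 named genes. These correlations are descriptive: the arrays share genotypes, treatment and processing, and the genes were picked for a high r. For RAB16A the highest were COI1 (0.84, the jasmonate receptor), KIN13B (0.82, a kinesin), CPK23 (0.81, a calcium-dependent kinase), SHL2 (0.80) and HO2 (0.79, a haem oxygenase). With each genotype's mean taken off they were the potassium transporter gene HAK23 (0.86), the splicing factor gene Os-RSZ23 (0.86), ceramidase (0.85), HO2 (0.84) and OAT (0.84, ornithine aminotransferase). HO2, which was on both lists, was higher with salt by 0.55 log2 in the mean of 4 genotypes. HAK23 (0.39), Os-RSZ23 (0.40), ceramidase (0.33) and OAT (0.31) were also higher there and passed. So were COI1 (0.25), KIN13B (0.25) and SHL2 (0.55), while CPK23 (0.21) did not pass. These genes were picked on the same arrays for following RAB16A, which itself rose with salt. Their salt calls are therefore not separate findings.

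The closest matches of LEA3 had a lower r. The highest was 0.60 (OsRFC4, a subunit of the clamp loader of DNA replication), or 0.68 with genotype means taken off (OsTDX), and Osr40c1, the second on both lists, reached 0.56 and 0.62. For DHN1 the highest was OsPSY3 (0.71, a phytoene synthase), then ABIL1 (0.70), BAT1 (0.69), PP2A1 (0.68) and the aquaporin gene OsPIP1;2 (0.68). With genotype means taken off it was OsPP2C09 (0.87), a phosphatase gene, then GER4 (0.75), the zinc transporter gene OsZIP1 (0.73), the aquaporin gene OsPIP2;4 (0.73) and OsSTLP1 (0.72). OsPP2C09 itself differed by -0.07 log2 with salt in the mean of 4 genotypes (adjusted p = 0.831).

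Replicate number left no passing trace in the 3 genes. Over the 6 probe sets the lowest adjusted p for a difference between replicate numbers was 0.347 (LEA3, number 2 minus number 1, 0.20 log2), in a comparison in which 2.83% of all probe sets passed. For number 3 minus number 2, DHN1 gave 0.32 log2 (adjusted p = 0.350, with 6.15% of probe sets passing), and number 2 held the lowest DHN1 value in 4 of 8 groups and the highest in 3.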

How the data were processed

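The table deposited by the authors gives a log2 value for each probe set and array, and per the submitters' processing notes RMA was used. Its version and the build behind the annotation are not given in the sources, and coordinates are left out. Of 57381 probe sets, 123 AFFX and 64 reporter probe sets were left out. The array annotation names 1 gene for 22436 probe sets, several for 95 and none for 34663. Names came from the RefSeq gene table of the Japonica assembly ASM3414082v1. The table holds no detection calls, and precision is limited by how many arrays there are.

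One limma fit (limma 3.58.1, R 4.3.3) gave the mean of each of the 8 groups, with a spread estimated from all 23 arrays together. Tests were two-sided, p-values were adjusted by Benjamini-Hochberg across all 57194 probe sets, and "passed" means an adjusted p under 0.05. The code was tested on simulated data. Pairing by replicate number was checked by correlating how salt and control arrays of one number departed from their group means. It was above 0.1 throughout in FL478 (0.421, 0.197 and 0.287) and IR63731 (0.142, 0.296 and 0.252), and not in IR29 or Pokkali. What a replicate number stood for is not stated in the labels.

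Named genes are the members, list genes that passed, and the 5 most alike genes by Pearson's r. Other list genes and markers were named after their values were seen. The gene TRAB1, which also carries the synonym ABA1, was dropped from the ABA synthesis list. The members, the lists and the alternatives were chosen with earlier results of these data known.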

Additional observations from a re-analysis of the deposited data

How the results depend on the processing

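The alternatives were array weights, a replicate block, a second quantile normalization, a robust eBayes with trend, a filter on dim probe sets, only the arrays compared, the 3 arrays between genotypes left out, a 3 prime minus 5 prime covariate, other probe sets, and each array left out in turn. RAB16A passed in the mean of 4 genotypes under each alternative run for it (0.71 to 0.87 over 23 fits without 1 array). Fitting only the arrays compared has no separate value there, since that comparison uses all 23 arrays. RAB16A in FL478 was 1.28 with only the arrays compared (adjusted p = 0.157) and 0.95 to 1.53 leaving out 1 array, passing in 20 of 23 fits. RAB16A in Pokkali was 0.99 with the replicate block (adjusted p = 0.049) and passed there, and was 0.83 to 1.29 leaving out 1 array. The replicate block changed no other call on the 3 genes in the salt comparisons. RAB16A between FL478 and IR63731 salt roots lost its call with array weights (0.89, adjusted p = 0.111), quantile normalization (0.99, adjusted p = 0.0563), only the arrays compared (adjusted p = 0.0911) and the second probe set (0.65, adjusted p = 0.063). The RAB16A salt effect of FL478 less that of Pokkali ranged from -0.041 to 0.54 leaving out 1 array.

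Differences that did not pass also changed sign. LEA3 was -0.022 in the mean of 4 genotypes with the 3 prime minus 5 prime covariate, and -0.18 to 0.075 in FL478 leaving out 1 array. DHN1 in FL478 was 0.14 without the 3 arrays and -0.22 to 0.14 leaving out 1 array, and in IR29 it was -0.43 to 0.65. The other DHN1 probe sets gave 0.11 and 0.14 in the mean, 0.34 and 0.044 in IR63731, and in Pokkali the third gave 0.33. DHN1 between Pokkali and IR29 ranged from 0.42 to 1.49 in control roots, and from -1.48 to -0.41 for the salt effect. The cause was not tested. Over 31 settings the dehydrins had 1 gene higher, genes of ABA synthesis and breakdown had 2 to 3 higher, and ABA-linked transcription factors 0 to 1.

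Over all probe sets, the calls in the mean of 4 genotypes were 1652 higher and 1051 lower without the 3 arrays, and 1006 higher and 801 lower with the covariate, against 2830 and 1923. The block called 2919 lower. In FL478 the calls were 16 higher and 42 lower with only the arrays compared and 75 higher and 78 lower without the 3 arrays, against 303 and 246.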
